A study of Mus musculus with 39 samples.

Results

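Of 39 lymphomas of Eµ-myc mice, 7 had low levels of chromosome 13 transcripts: tumours 3, 10, 12, 15, 17, 24 and 25. They were chosen from the expression values themselves. Each gene was centred on its median over the tumours and each array on its median over genes, and the 7 had a median over chromosome 13 genes at or under -0.15 (log2). The rule gave these 7 tumours when it used the 315 chromosome 13 genes with a mean level of at least 7, of 702 measured, and genes at or above that level are called expressed here. With all 702 genes only 5 of the 7 passed, and tumours 12 and 15 did not. They were compared with the 26 other tumours in which Pou2af1, a transcriptional coactivator of B cells, was at 8 or more (log2), and 6 tumours with less Pou2af1 (5, 6, 8, 19, 23 and 26) were on neither side. DNA was not measured, so whether the 7 tumours had fewer copies of chromosome 13 was not tested.

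The study profiled frozen lymphoma tissue, taken when transgenic mice became ill or showed lymphoma, on 1 Affymetrix array per tumour. All tumours carry the Eµ-myc transgene, in which a heavy chain enhancer of the immunoglobulin locus drives Myc in B lineage cells. The labels put them in 1 group with no normal tissue, treatment, age, sex or date, and call them a training set. They do not say that each tumour came from its own mouse, so the spread behind each p-value is that between these samples and may be partly technical.

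Malignant B cells of this model arise in animals whose every B cell carries the oncogene, and further lesions are selected as tumours form, often in the pathway in which Arf, a product of Cdkn2a, restrains Mdm2 and so stabilises p53. Gain or loss of whole chromosomes is a common lesion in lymphoma, and the transcripts of a chromosome tend to follow its copy number, more closely for some genes than for others. Mouse chromosome 13 carries genes of several kinds that bear on B cells, among them the kinase gene Syk, the PI3 kinase subunit gene Pik3r1, the transcription factor gene Irf4, centromere and cell cycle genes, and parts of the mitochondrial respiratory chain.

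The 7 tumours formed a graded series. The chromosome 13 level was -0.63 in tumour 17, -0.56 in tumour 24, -0.53 in tumour 3, -0.42 in tumour 25, -0.37 in tumour 10, -0.26 in tumour 15 and -0.20 in tumour 12 (log2, centred). The next tumour was number 21, in the comparison group, at -0.013, so no tumour lay near the threshold from above. The 26 comparison tumours ran from -0.013 through a median of 0.06 to 0.13, and the 6 on neither side from 0.0074 to 0.07. These values chose the tumours and are a description. Between 72.7% (tumour 12) and 96.5% (tumour 17) of the expressed chromosome 13 genes lay below zero in the 7 tumours, against 24.8% to 51.1% in the comparison tumours. Of the expressed genes on all other chromosomes, 46.0% to 48.8% lay below zero in the same 7 tumours, against 47.3% to 51.0% in the comparison tumours. Centring each array on its median over genes keeps these shares close to even, so nothing is read from them.

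**Figure D1:**
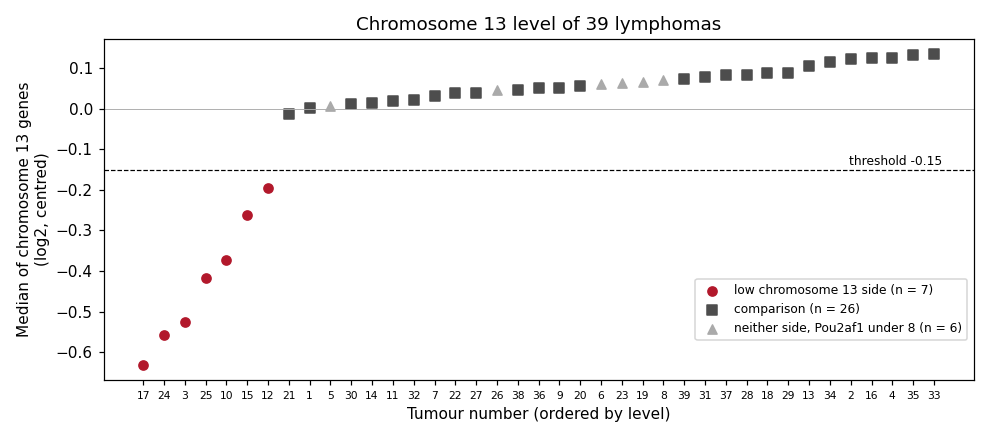
Median of the 315 expressed chromosome 13 genes (y axis, log2 after centring) in each of the 39 tumours (x axis, ordered by level), with the threshold of -0.15 as a dashed line. The 7 low tumours run from -0.63 to -0.20, and every other tumour lies at -0.013 or higher.

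The arrays of the 7 tumours were like the others in quality. Array medians ran from 5.68 to 5.72 (log2) against 5.66 to 5.78 in the comparison tumours, and the mean correlation of an array with the other arrays from 0.963 to 0.968 against 0.918 to 0.973. The 3' minus 5' difference of the Gapdh control ran from -0.19 to 0.22 against -0.16 to 0.095, with the highest value in tumour 3. Pou2af1 lay between 12.66 and 12.96 against 10.59 to 12.98. The mean of 8 B lineage markers, relative to all tumours, lay between -0.04 (tumour 25) and 0.60 against -1.01 to 0.60. Each of the 7 thus lay within the range of the comparison tumours in both.

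The low levels ran from one end of the chromosome to the other, though less clearly in tumour 12. When the expressed chromosome 13 genes were put in chromosome order and cut into 10 stretches of 31 or 32 genes, the median of every stretch was below zero in every one of the 7 tumours. Tumour 17 ran from -0.72 to -0.50, tumour 24 from -0.64 to -0.50, tumour 3 from -0.68 to -0.40, tumour 25 from -0.50 to -0.29, tumour 10 from -0.54 to -0.32, tumour 15 from -0.39 to -0.13 and tumour 12 from -0.30 to -0.11. All 10 stretches were at or under -0.15 in tumours 3, 10, 17, 24 and 25, 9 in tumour 15 and 6 in tumour 12. The first and last stretches of tumour 12 (-0.11 and -0.12) lay within the comparison range, whose lowest values there were -0.13 and -0.21. The comparison tumours also held low stretches, but short ones. In tumour 20 the stretches from Nqo2 to Cd83 (-0.79) and from Jarid2 to Sfxn1 (-0.53) lay below all of the 7, although its chromosome level was 0.056. The second of these was at -0.40 in tumour 9, the stretch from Nsa2 to Cwc27 at -0.47 in tumour 2, and that from Srek1ip1 to Zfp131 at -0.21 in tumour 1.

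**Figure D2:**
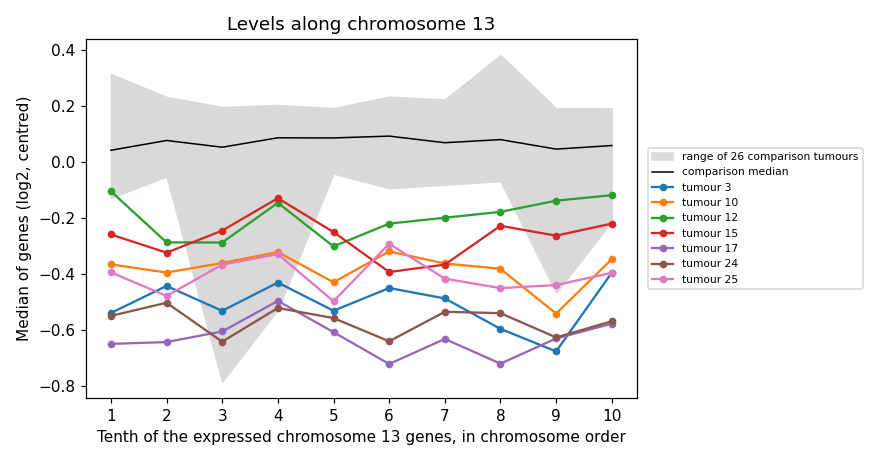
Median of centred levels (y axis, log2) in 10 consecutive stretches of the expressed chromosome 13 genes (x axis, chromosome order), 1 line for each low tumour, with the range (grey) and median (black) of the 26 comparison tumours. The lines of the 7 tumours stay below zero throughout, and the grey dips at stretches 3 and 4 are comparison tumour 20.

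Most expressed genes of the chromosome shared the shift, by differing amounts. The low tumours had the lower mean for 301 of 315 expressed chromosome 13 genes (95.6%), against 46.3% of 7984 expressed genes elsewhere. The median difference was -0.47 (log2), which is 72.4% of the level in the comparison tumours, and the middle 90% of genes lay between -0.89 and -0.02. Genes at least 0.25 lower made up 85.4% (269 genes) on chromosome 13 and 13.1% elsewhere, and genes at least 0.25 higher 1.27% (4 genes) and 17.3%. As these genes entered the choice of the tumours, nothing is read from those shares. Without tumour 12, the mildest case, the median difference was -0.51.

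The size of the difference depended on the signal. Genes with a mean level of 7 to 9, 9 to 11 and over 11 differed by a median of -0.45, -0.46 and -0.48, whereas the 141 genes between 5 and 7 differed by -0.13 and the 246 dimmer ones by -0.04. All 35 chromosome 13 genes above a level of 11 had the lower mean in the low tumours. A further 200 probe sets of these genes, which did not represent their gene, had a median difference of -0.41, and 194 of them were below zero.

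**Figure D3:**
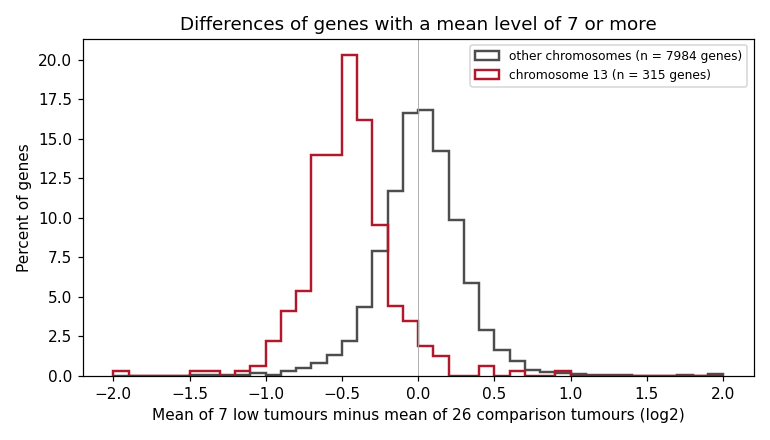
Percent of genes (y axis) by the difference in mean level, 7 low minus 26 comparison tumours (x axis, log2), for 315 chromosome 13 genes (red) and 7984 genes elsewhere (grey), all with a mean level of 7 or more and values past the ends of the axis put in the end bins. The red distribution is centred at -0.47 and the grey one at 0.02.

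For 10 expressed chromosome 13 genes (3.17%) every low tumour lay below every comparison tumour, against 1 gene (0.0125%) of those elsewhere. Every low tumour lay above every comparison tumour for 0 of the chromosome 13 genes (0%) and for 4 expressed genes elsewhere (0.0501%). Glrx, a glutaredoxin that reduces protein disulfides, had the widest difference of them. It lay between 6.82 and 7.87 in the low tumours (median 7.55) and between 7.93 and 10.62 in the comparison tumours (median 8.89). The difference was -1.45 ± 0.21 (SE, n = 7 and 26), and the ranges did not overlap. The others were Higd2a (-0.90) and Ndufs4 (-0.60), an assembly factor and a subunit of the respiratory chain, Idnk (-0.87), Tmem167 (-0.77), Fam193b (-0.74), Tut7 (-0.71), which adds uridines to RNA, Uimc1 (-0.65), a ubiquitin receptor of the DNA damage response, Vps41 (-0.59), a lysosomal trafficking factor, and Smim15 (-0.48). They were chosen for the lack of overlap after their values were seen.

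The genes with the largest differences were not those with the cleanest separation. Emb, a partner of lactate transporters, had the largest difference (-1.96 ± 0.59, SE), with 5.06, 6.37 and 8.39 as lowest, median and highest of the low tumours and 5.57, 8.70 and 10.87 of the comparison tumours. Tumours 3 and 25 were its highest, at 8.38 and 8.39, and 11 of 26 comparison tumours lay at or under them. Tifab, an inhibitor of TRAF6 signalling, differed by -1.69 ± 0.41 and lay below the comparison median in all 7 tumours. Tubb2a, a beta tubulin, differed by -1.19 ± 0.27, with tumour 12 at 8.62 and the other 6 tumours between 7.54 and 7.75. The other probe set of Tubb2a differed by only -0.19. Zfp953 differed by -0.96 ± 0.15 and Pcbd2, a cofactor enzyme, by -0.95 ± 0.16. Parp8 (-1.52 ± 0.53), Gkap1 (-0.99 ± 0.39) and Gzmk (-0.96 ± 0.54), a granzyme of cytotoxic cells, varied widely on both sides.

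The fixed lists of chromosome 13 genes are described next, and their counts are to be read against the 95.6% of all its expressed genes with the lower mean, the 85.4% at least 0.25 lower and the median of -0.47. Of 23 expressed genes of lymphocyte signalling and transcription, 21 had the lower mean and 19 were at least 0.25 lower, with a median of -0.52. Syk, the kinase that relays the B cell receptor signal, lay between 9.42 and 10.08 in the low tumours (median 9.80) and between 10.07 and 12.12 in the comparison tumours (median 10.76). It differed by -0.94 ± 0.18 (SE), 52.1% of the comparison level, and a single comparison tumour lay as low as the highest of the 7. The other probe sets of Syk differed less, by -0.62 to -0.49. Pik3r1, the regulatory subunit of PI3 kinase, lay between 8.45 and 9.23 against 8.93 to 10.38 and differed by -0.77. Rasa1, which turns Ras off, lay between 8.48 and 9.24 against 9.08 to 9.94 and differed by -0.70, again with 1 comparison tumour in reach. All 7 tumours lay below the comparison median for each of these 3 genes.

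Ssbp2, a partner of LIM domain transcription complexes, differed by -1.35, with its lowest level in tumour 17 (5.30) and its highest in tumour 25 (8.68). Serpinb9, an inhibitor of granzyme B, had a median of 6.16 against 7.29, Sema4d, a semaphorin of lymphocytes, differed by -0.89, Dok3, an adaptor that dampens B cell receptor signals, by -0.65 and Irf4 by -0.51. Il6st, a shared cytokine receptor chain, was at 8.37, 8.41 and 8.54 in tumours 3, 12 and 25 and at 6.30 to 7.21 in the other 4. Mef2c and Cd83 differed little in mean but spread too widely to tell whether they shared the shift. Mef2c, a transcription factor gene, differed by 0.05 ± 0.31 (SE), its lowest level being 8.78 (tumour 25) and its highest 11.24 (tumour 15). Its other probe sets differed by -0.29 to 0.09. Cd83, an activation marker, differed by -0.05 ± 0.54 (SE) and was highest in tumour 12 (9.65). Serpinb1a differed by 0.15.

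Of 15 expressed cell cycle and chromatin genes, 14 had the lower mean and 12 were at least 0.25 lower, with a median of -0.46, close to that of the whole chromosome. The centromere genes Cenpk (-0.84 ± 0.21, SE) and Cenph (-0.75 ± 0.26) and the cell cycle gene Depdc1b (-0.84 ± 0.33) led. Cenpk lay between 8.08 and 8.73 against a comparison range of 7.10 to 10.23 with a median of 9.44, and 2 comparison tumours were as low. Macroh2a1, a histone variant gene, differed by -0.73 and lay between 11.46 and 11.83 against 11.66 to 12.91. Mxd3, a Max partner, differed by -0.72, E2f3 by -0.53, Gmnn, the inhibitor of replication licensing, by -0.51, Nsd1, a histone methyltransferase gene, by -0.46, and Cks2, a cyclin-dependent kinase subunit, by -0.37. Plk2 was the exception, with a difference of 0.66, but its 2 probe sets did not correlate (r = -0.01), and tumour 15 stood at 10.18 and tumour 17 at 6.99.

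All 10 expressed genes of the DNA repair and replication list, which also holds Ubqln1 and Rfesd, had the lower mean. For 9 of them it was lower by at least 0.25, and the median was -0.44. Polk, a polymerase that copies past damaged bases, lay between 6.68 and 7.39 against 7.39 to 8.30 and differed by -0.72 ± 0.11 (SE), with 1 comparison tumour as low as the highest of the 7. The other probe set of Polk differed by only -0.26. Rad17, a loader of the checkpoint clamp, differed by -0.50, Fancc of the Fanconi pathway by -0.49, Msh3 of mismatch repair by -0.39 and Xrcc4 of end joining by -0.35. Cdk7 (-0.52) and Ccnh (-0.30), kinase and cyclin of the same complex, were both lower. The least alike pair of probe sets had r = 0.12 for Cdk7 (5 probe sets) and r = -0.05 for Ubqln1 (3 probe sets, difference -0.58).

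All 27 expressed genes of mitochondria, ribosome and metabolism had the lower mean, 23 by at least 0.25, with a median of -0.45. The respiratory chain genes differed by similar amounts. Sdha of complex II differed by -0.68, with 10.41 to 10.79 in the low and 10.72 to 11.57 in the comparison tumours. Uqcrfs1 of complex III differed by -0.67, Cox7c of complex IV by -0.65 and Ndufs4 of complex I by -0.60. The mitochondrial ribosome genes Mrpl36 (-0.81), Mrps36 (-0.52), Mrps30 (-0.41) and Mrps27 (-0.39) were lower, as were Btf3 (-0.54), which binds nascent proteins, and Hmgcs1 (-0.64), an enzyme of sterol synthesis. Nnt, which supplies mitochondrial NADPH, differed by -1.06 ± 0.36, with 9 comparison tumours within or below its range. Its other probe sets differed by -1.03 to -0.11. Hnrnpk (-0.05), an RNA-binding protein gene, and Nol8 (-0.09) showed the least difference. In the low tumours Hnrnpk lay between 12.66 and 13.17 and in the comparison tumours between 12.11 and 13.19. Its other probe sets differed by -0.28 to -0.05.

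A few expressed chromosome 13 genes had the higher mean. F13a1, a clotting factor gene also made by macrophages, lay between 7.96 and 10.16 against 6.21 to 10.24, a difference of 0.98 ± 0.37 (SE). Sirt5, a mitochondrial deacylase gene, differed by 0.48. Rbm24 (1.23) and Ryr2 (0.82) also had higher means but are dimmer genes with wide spreads, and Ryr2 ran from 2.95 in tumour 12 to 7.42 in tumour 24. The single expressed gene of the histone cluster, H1f2, differed by -0.27, and the least alike pair of its 3 probe sets had r = 0.01.

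On the other chromosomes the 7 tumours were not alike. Tumours 10 and 17 had no other chromosome whose median differed from zero by 0.15 or more. Tumour 3 had 1, chromosome 19 (-0.59), and tumour 25 had chromosomes 19 (-0.52) and 16 (-0.17) down with 14 (0.36) and 4 (0.19) up. Tumour 24 had chromosome 12 (-0.15) down with 3 (0.27) and 5 (0.20) up, and tumour 15 had X (0.42), 3 (0.39), 17 (0.21) and 14 (0.20) up. Tumour 12 stood apart, with 6 chromosomes down, led by 12 (-0.39), 2 (-0.35) and 7 (-0.31), and 6 up, led by 4 (0.33) and 1 (0.26). In tumours 3 and 25 chromosome 19 was low in all 10 stretches of its genes, from -0.67 to -0.45 and from -0.56 to -0.39. Among the comparison tumours 13 of 26 had a chromosome past 0.15, all 13 with one up and 2 with one down, and among the 7 tumours 5 had one, 4 with one up and 4 with one down.

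**Figure D4:**
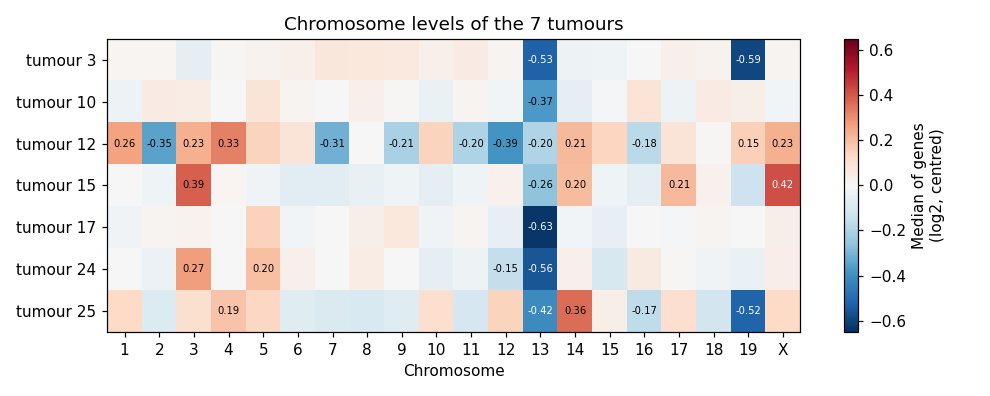
Median of centred levels of the expressed genes of each chromosome (x axis) in each low tumour (y axis), as colour (log2), with values printed at 0.15 or more in either direction. Chromosome 13 is low in all 7 tumours, chromosome 19 in tumours 3 and 25, and tumour 12 departs on 12 other chromosomes.

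Over 19 other chromosomes tested, X and 4 were higher in the low tumours. The mean level of X was 0.14 higher (exact permutation test, 2-sided, p = 0.00095, adjusted p = 0.018, n = 7 and 26), with the highest levels in tumours 15 (0.42) and 12 (0.23), and 0.091 higher without tumour 15. Chromosome 4 was 0.095 higher (exact permutation p = 0.0028, adjusted p = 0.026), and tumours 12 (0.33) and 25 (0.19) held most of it, since the other 5 lay between -0.0045 and 0.013. Neither passed with all genes in place of the expressed ones (exact permutation adjusted p = 0.0815 for X and 0.0902 for 4) or without tumour 25 (adjusted p = 0.0613 and 0.125), and 4 did not without tumour 12 (0.053, adjusted p = 0.111). Chromosomes 19 (-0.20, exact permutation adjusted p = 0.0585) and 3 (0.15, adjusted p = 0.078) did not pass, though 19 did without tumour 12 (-0.25, adjusted p = 0.0235) or 10 (-0.23, adjusted p = 0.0377), and 3 without tumour 3 (0.18, adjusted p = 0.0428). Chromosome 19 also passed against all other tumours (-0.19, exact permutation adjusted p = 0.0449), chromosome 7 without tumour 3 (-0.089, adjusted p = 0.0278) and chromosome 2 without tumour 10 (-0.086, adjusted p = 0.039).

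Outside chromosome 13 the low tumours had 243 genes higher (1.4%) and 107 lower (0.618%) of 17326 tested, 350 in all (2.02%), by limma with Benjamini-Hochberg adjustment over all genes and a threshold of 0.05. At an unadjusted p under 0.05 there were 2351 (13.6%). The lead findings were a lower level of Rpl22l1, a ribosomal protein gene, and a uniformly high level of Cdkn2a. The counts were smaller without tumour 24 (106 higher and 54 lower), 15 (143 and 65) or 17 (143 and 59). Without tumour 12 they were 176 and 93, of which 145 and 78 were also called with all 7. With the Cdkn2a level as a covariate only 6 and 4 genes were called, 3 and 3 of them shared. That fit separates side from Cdkn2a level poorly, as 24 of 26 comparison tumours had less Cdkn2a than all of the 7. Some genes lost their call at a similar difference (Crmp1, 2.21 without and 2.35 with the covariate). Others lost it at a smaller one (Pfn2, 2.64 and 0.62), so nothing is read from the drop in calls. With arrays centred on genes off chromosome 13 there were 122 and 58.

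Rpl22l1, on chromosome 3, was the only gene of the 17326 outside chromosome 13 for which every low tumour lay below every comparison tumour (0.00577%). It encodes a paralogue of the ribosomal protein Rpl22, which is known to repress Rpl22l1. Its level was 11.84 in tumour 25, 11.87 in 3, 11.92 in 10, 11.95 in 24, 12.20 in 17, 12.37 in 15 and 12.62 in 12. In the comparison tumours it ran from 12.66 through a median of 13.22 to 13.55, and in the 6 tumours on neither side from 13.07 to 13.42. Tumours 12 and 15, with the mildest chromosome 13 shift, were the highest of the 7, but still under all others. Their chromosome 3, where the gene lies, was at 0.23 and 0.39 (log2, centred), and that of tumour 24 at 0.27. Tumour 17 had the deepest chromosome 13 shift (-0.63) but the next highest Rpl22l1, so the order did not follow the shift throughout. What sets this order was not tested. Rpl22l1 fell by 1.09 ± 0.11 (SE, n = 7 and 26), 2.13-fold, with a limma adjusted p of 1.64e-07, and was called in all 18 alternatives. With Cdkn2a as a covariate it fell by 0.91 (limma adjusted p = 0.0024). Rpl22 itself, on chromosome 4, was at 14.13 to 14.39 against 14.00 to 14.24, a difference of 0.09 (limma adjusted p = 0.078), and the least alike pair of its 3 probe sets had r = -0.14. The mean of its probe sets gave -0.04.

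Cdkn2a, on chromosome 4, encodes the tumour suppressors Arf and p16Ink4a from separate start sites. It was at 11.65 in tumour 25, 11.80 in 15, 11.90 in 3 and 24, 11.95 in 10 and 11.97 in 12 and 17, an SD of 0.12. The comparison tumours ran from 4.41 through 7.25 to 12.17 with an SD of 2.06, and 24 of 26 lay below all of the low tumours. Cdkn2a was higher by 4.27 ± 0.76 (SE), 19.2-fold, with a limma adjusted p of 0.00081, and it passed in 17 of 18 alternatives, that is in all except the one with its own level as covariate. The 2 comparison tumours with as much Cdkn2a, 9 (12.17) and 14 (12.12), had chromosome 13 levels of 0.052 and 0.014, and their Rpl22l1 was at 13.09 and 12.82. On neither side it ran from 4.14 to 10.81. Its neighbours on chromosome 4 differed little, Cdkn2b by 0.05 (limma adjusted p = 0.95) and Mtap by 0.48 (limma adjusted p = 0.66). Which transcript the Cdkn2a probe set reads was not tested.

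The promoters of these genes are shown because they lead the genes outside chromosome 13. They come from RefSeq, build GRCm38.p6, and run from 250 bases before to 50 after a transcript start, 5′ to 3′ on the gene's strand. Capitals mark the GC box (GGGCGG or its complement CCGCCC), which 35.7% of 32851 such promoters hold on either strand, and the motif TATATAA (or TTATATA), which 3.24% hold. In the Rpl22l1 promoter both forms of the latter overlap in 1 run of 8 bases. The first is Rpl22l1 at chr3:28805258-28805557 on the plus strand. The others are Cdkn2a at chr4:89294570-89294869, the upstream start, which gives Arf, and at chr4:89282143-89282442, both on the minus strand.
Rpl22l1: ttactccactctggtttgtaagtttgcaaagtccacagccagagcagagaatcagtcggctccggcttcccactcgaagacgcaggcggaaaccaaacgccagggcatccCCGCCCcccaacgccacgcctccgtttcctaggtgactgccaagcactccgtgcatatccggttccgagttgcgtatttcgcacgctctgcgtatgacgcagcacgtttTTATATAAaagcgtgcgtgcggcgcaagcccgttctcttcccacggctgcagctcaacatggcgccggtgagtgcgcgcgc
Cdkn2a upstream start: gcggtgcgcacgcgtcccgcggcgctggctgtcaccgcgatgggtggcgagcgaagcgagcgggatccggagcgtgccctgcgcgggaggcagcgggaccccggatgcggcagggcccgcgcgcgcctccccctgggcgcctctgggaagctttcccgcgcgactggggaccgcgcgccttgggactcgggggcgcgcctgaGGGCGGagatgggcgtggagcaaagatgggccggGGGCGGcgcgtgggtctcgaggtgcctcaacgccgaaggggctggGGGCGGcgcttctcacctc
Cdkn2a downstream start: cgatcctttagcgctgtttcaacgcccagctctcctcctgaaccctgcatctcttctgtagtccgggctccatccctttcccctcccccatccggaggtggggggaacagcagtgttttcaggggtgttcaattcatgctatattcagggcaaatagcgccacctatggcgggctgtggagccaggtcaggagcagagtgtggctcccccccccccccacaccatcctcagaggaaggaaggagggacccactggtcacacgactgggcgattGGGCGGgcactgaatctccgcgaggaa
The upstream Cdkn2a window holds 3 GC boxes and 45 CpG, against a median of 7 CpG over all promoters, and the downstream window 1 GC box and 12 CpG. The Rpl22l1 window holds 1 GC box and 30 CpG. These matches are descriptions of the sequence.

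**Figure D5:**
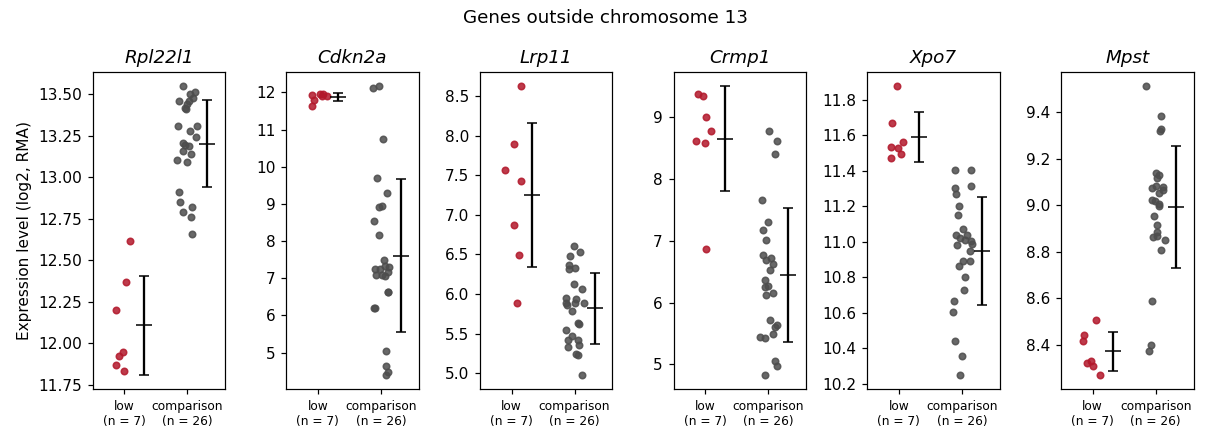
Expression level (y axis, log2, a separate scale for each gene) of 6 genes outside chromosome 13 in the 7 low (red) and 26 comparison tumours (grey), 1 point per tumour, with the mean and SD as bars. The Rpl22l1 and Xpo7 ranges do not overlap, the 7 Cdkn2a values lie between 11.65 and 11.97, and tumour 12 is the low Crmp1 point.

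Several of the other genes that rose were dim in the comparison tumours and spread widely among the 7. Pfn2, a profilin of the actin cytoskeleton, rose by 2.64 ± 0.60 (SE), with 12.00 in tumour 24 and 7.42 in tumour 12. Crmp1, a cytoskeletal regulator of neurons, rose by 2.21 ± 0.43 (limma adjusted p = 0.0021), with 6 tumours between 8.58 and 9.37. Lrp11, a receptor-like membrane protein gene, rose by 1.43 ± 0.24 (limma adjusted p = 0.0003), running from 5.88 in tumour 25 to 8.63 in tumour 12 against 4.98 to 6.61. Cdkn1c, the cell cycle inhibitor p57, rose by 2.03 ± 0.51 and was highest in tumour 10 (10.55). Fzd6, a Wnt receptor gene, rose by 1.98, with 11.60 in tumour 12, and without that tumour it was not called. The other probe sets of Fzd6 rose by only 0.24 and 0.60. Pou5f1, a pluripotency factor gene, rose by 1.70, with tumour 25 (5.48) below the comparison median. Pfn2 was not called without tumour 24, Cdkn1c not without 3, 10 or 17, and Pou5f1 not without 3, 10, 15, 17 or 24. Cdkn1c and Pou5f1 were also not called with the level of Xist, an X-linked RNA, as a covariate (limma adjusted p = 0.062 and 0.059). They were not called either with scores of T cell, macrophage, fibroblast and salivary gland markers (tissue scores) as covariates.

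The remaining genes of that rank were Acoxl (1.79), Ankrd6 (1.78), Serpinb2 (1.74), Zfp948 (1.59), Reep6 (1.42), Prkag3 (1.37), Zfp248 (1.36) and Ina (1.32). Ina, a neuronal filament gene, was at 8.53 in tumour 17 and 8.02 in tumour 12 and at 5.20 in tumour 25. Prkag3, a subunit of AMP-activated kinase, lay between 6.31 and 7.11 in all 7 tumours. The least alike pair of the 4 probe sets of Zfp248 had r = -0.33. Of these 8 genes, Zfp248 and Ina were the ones that passed without each single tumour in turn. Ankrd6 passed in these repeats only without tumour 25, and its other probe sets rose by 0.11 and 1.09. Zfp948 was not called without 12 or 24, Acoxl not without 12, 15 or 24, Serpinb2 not without 10, 12 or 24, Prkag3 not without 10, 12, 17 or 24, and Reep6 not without 10, 12, 15, 17 or 24. Acoxl and Ankrd6 were also not called with Xist or with tissue scores as covariates, and Serpinb2 not with Xist.

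Genes with smaller but steadier rises were chosen after their values were seen. Xpo7, a nuclear export receptor gene on chromosome 14, lay between 11.47 and 11.88 against 10.25 to 11.41, without overlap, and rose by 0.64 ± 0.12 (SE, limma adjusted p = 0.0011). All of its 8 probe sets had the higher mean, though the least alike pair had r = -0.19. Poglut2 (1.26), Rab23 (0.61) and Luc7l (0.52) were the other genes without overlap above (4 genes, 0.0231%). Gnl2, a ribosome assembly GTPase gene, rose by 0.65 ± 0.11 (limma adjusted p = 0.0003). Kdm5c, an X-linked histone demethylase gene known to escape X inactivation, rose by 0.60 ± 0.12 (limma adjusted p = 0.003), and all of its 9 probe sets had the higher mean, though the least alike pair did not correlate (r = -0.03). Xist, the RNA that silences an X chromosome, was above 10 in 5 of the 7 and 11 of the 26 tumours, and with Xist as a covariate Kdm5c rose by 0.50 (limma adjusted p = 0.0058) and 162 genes were called higher in all.

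Prodh, which breaks down proline, had the largest of the falls outside chromosome 13 that are named here. It fell by 1.39 ± 0.33 (SE, limma adjusted p = 0.0145), with 6.51 to 7.97 in the low and 7.37 to 10.59 in the comparison tumours. Pck2, which makes phosphoenolpyruvate in mitochondria, fell by 0.90 ± 0.18 (limma adjusted p = 0.0038). Mpst, an enzyme of cysteine breakdown chosen after its values were seen, lay between 8.27 and 8.51 in all 7 tumours against 8.37 to 9.51 and fell by 0.62 ± 0.11 (limma adjusted p = 0.0005). Akr1b10, an aldo-keto reductase, fell by 0.83 and B4gat1, a glycosyltransferase, by 0.86 ± 0.15 (limma adjusted p = 0.0007). Prodh was not called without tumour 24. Akr1b10 was not called against all other tumours or with the mean of its probe sets (limma adjusted p = 0.0527 and 0.0871).

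The others with large falls included Btbd6 (-0.91 ± 0.15, limma adjusted p = 0.0003), a ubiquitin ligase adaptor, and Fnbp1 (-1.01 ± 0.21, limma adjusted p = 0.0053), a membrane-bending protein gene. They also included the potassium channel gene Kcnk6 (-1.03), Ccdc28b (-1.01), Plekho1 (-0.92), Zfp810 (-0.90) and Rcor3 (-0.88), a corepressor gene. Rgl1 (-0.88), an activator of Ral, Cnp (-0.88) and Fbxw4 (-0.82) were among them too. Btbd6 lay between 5.15 and 6.24 in the low tumours and between 6.04 and 7.51 in the others, with 1 comparison tumour in reach. Plekho1 was at 6.52 and 6.58 in tumours 10 and 3 and at 7.57 to 8.19 in the rest, and it was not called without 3, 10, 24 or 25. Kcnk6 was not called without 15, 17 or 24, Ccdc28b not without 3, 17 or 24, Rgl1 not without 3, 10, 15, 17 or 24, Zfp810 not without 15 or 17, Rcor3 not without 17, and Fbxw4 not without 24. Cnp was not called against all other tumours (limma adjusted p = 0.164).

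Falls were frequent on chromosome 19. Of 609 genes tested there 25 fell (4.1%) and 3 rose (0.493%), against 0.618% and 1.4% of all genes outside chromosome 13. Without tumours 3 and 25, whose chromosome 19 was low, 6 fell. B4gat1, Fbxw4, Fen1 and Znhit2 lie on it. Znhit2, chosen after its values were seen, lay between 7.64 and 8.44 against 8.19 to 9.08 and fell by 0.62 ± 0.10 (SE, limma adjusted p = 0.0005), and it was called in all 18 alternatives. Rises were most frequent on X (21 of 617, 3.4%), 14 (21 of 640, 3.28%) and 17 (26 of 834, 3.12%). Next came 3 (28 of 913, 3.07%) and 4 (32 of 1087, 2.94%), against 1.4% of all genes outside chromosome 13. When each gene was taken relative to the level of its own chromosome in each tumour, 5 rose and 19 fell on X, 14 rose and 12 fell on chromosome 4, and 19 rose and 5 fell on chromosome 19. Without that step 2 genes fell on each of X and chromosome 4.

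Of the 261 genes in lists outside chromosome 13, 5 were called. Of 44 partners of chromosome 13 products, such as Mnat1, Msh6, Lig4, Rad9a and Btk, none was called by limma, 6 had an unadjusted p under 0.05, and the median difference was 0.01. Of all genes outside the chromosome, 1.4% were called higher, 0.618% were called lower and 13.6% had an unadjusted p under 0.05, and the counts of these lists are to be read against those shares. Of 23 p53 targets, Xpc, a DNA damage sensor gene, rose by 0.54 ± 0.14 (SE, limma adjusted p = 0.0244) and Ccng1, a cyclin gene, fell by 0.62 ± 0.17 (limma adjusted p = 0.038). Ccng1 was not called without tumours 10, 12, 15, 17, 24 or 25, and Xpc not without 3, 10 or 24. Cdkn1a, the p53 target that stops the cell cycle, differed by -0.52 (limma adjusted p = 0.36).

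Of 20 S phase genes, Fen1, a flap nuclease gene on chromosome 19, fell by 0.51 ± 0.13 (SE, limma adjusted p = 0.0299), and it was not called without tumour 3, 15, 24 or 25. The S phase list had a median difference of -0.07 and Tyms the largest in it (-1.02). Of 28 Myc network and lesion genes, Cdkn2a rose and Mdm4, an inhibitor of p53, fell by 0.44 ± 0.12 (limma adjusted p = 0.0417), with r = 0.0046 between the least alike pair of its 4 probe sets. Mdm4 was not called without tumour 3, 12, 17, 24 or 25. Myc was at 11.75 to 12.63 against 8.19 to 12.54 and differed by 0.44 (limma adjusted p = 0.56). Mdm2 (-0.15), Ccnd1 (0.51), Ccnd2 (0.99) and Ccnd3 (-0.70) did not pass, and the least alike pair of 3 probe sets had r = 0.10 for Mdm2 and -0.08 for Ccnd3. With tissue scores as covariates Ccnd2 was called (1.49, limma adjusted p = 0.0445). All 7 tumours lay above the comparison median of Ccnd2 and below that of Ccnd3.

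No member was called in the lists of Myc targets (22 genes, median 0.20), G2/M proliferation (20, 0.05), the BCL2 family (14, -0.08), precursor B cell (17, -0.19), mature B cell (20, 0.07), germinal centre (11, -0.36), plasma cell (11, -0.31), MHC class II (9, -0.04), interferon response (15, -0.44), NF-kB targets (12, -0.10) and V(D)J and end joining genes (10, 0.02). Over these lists and the partners, 22 of 205 entries had an unadjusted limma p under 0.05, against 13.6% of all genes outside the chromosome. Bcl2l2, a survival gene of the BCL2 family, differed by -1.08 (limma adjusted p = 0.059), and with the Cdkn2a level as covariate by -2.64 (limma adjusted p = 0.0047). As that fit separates side from Cdkn2a level poorly, nothing is read from the second value.

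Markers of other cells differed from tumour to tumour. By limma none of 111 marker entries was called, and 7 had an unadjusted p under 0.05, against 13.6% of all genes outside the chromosome. All 10 T cell markers had the lower mean in the low tumours (median -0.84), as had all 10 cytotoxic and NK cell markers (median -0.63). So had 11 of 12 fibroblast and 10 of 11 neutrophil markers, against 54.9% of all genes outside the chromosome. The summed T cell level, a mean over markers relative to all tumours, ran from -1.52 in tumour 10 to 1.00 in tumour 3, against -1.40 to 3.09. Neither it nor the cytotoxic level passed (exact permutation p = 0.11 and 0.080). In bulk tissue fewer cells of a type and less RNA per cell cannot be told apart. Macrophage markers ran from -0.93 to 0.58 against -0.64 to 1.38. All 11 salivary gland markers had the higher mean (median 1.62), with scores of 6.84 (tumour 25), 5.55 (tumour 3) and 2.44 (tumour 15), and of -1.78 to -1.63 in the other 4. The comparison tumours also ran high, from -1.87 to 5.97. Their median score (-1.58) lay above that of the 7 (-1.63), but their mean score (-0.33) lay below the mean of the 7 (1.13). The difference in mean score did not pass (exact permutation p = 0.25). Gzmk and Gzma of cytotoxic cells lie on chromosome 13 (-0.96 and -0.52), and the part of T and cytotoxic cells in those differences was not tested. With the tissue scores as covariates 196 genes were called higher and 159 lower outside the chromosome, 128 and 62 of them shared with the fit without covariates.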

How the data were processed

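RNA of 39 Eµ-myc lymphomas was hybridised to 1 Affymetrix array each. The deposited values are on a log2 scale, 1 per probe set, and the submitters' processing notes name RMA and the affy package, with no version. RMA quantile normalizes arrays, which hides a change in total RNA and draws dim genes toward background. The number of arrays limits the precision.

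Of 45101 probe sets, 35890 were listed in the platform annotation, 34958 with 1 gene and 932 with several, and 9211 were not listed. By Entrez identifier 34741 matched a gene table of GRCm38.p6. Each of 18193 genes was represented by its probe set with the highest mean, and 9010 genes had several. Of 561 list entries in 33 lists, 493 were measured, and those without a value were not analysed here. A marker listed under 2 names was counted once.

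Genes outside chromosome 13 were tested with limma 3.58.1 (lmFit, eBayes with trend, 2-sided) in R 4.3.3, with Benjamini-Hochberg adjustment over all genes and a threshold of 0.05. Genes of chromosome 13 were described without a test. Other chromosome levels, medians of centred expressed genes, were compared by an exact permutation test over tumours. The fit was tested on simulated data.

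The tumours, lists and tests were chosen with earlier results of these data known. Named genes were, by rule, the 12 largest falls and 5 largest rises on chromosome 13, members of its lists, the 15 largest called rises and falls elsewhere (Riken clones, predicted genes and unnamed transcripts passed over), called list members, Myc, Cdkn2a, Mdm2 and Ccnd1 to Ccnd3. Rpl22, Cdkn1a, Cdkn2b, Mtap, Tyms, Bcl2l2 and Xist, and the genes marked so in the text, were chosen with their values in view. Alternatives were each low tumour left out, all other tumours as comparison, the mean of probe sets, a filter on dim genes, array centring, eBayes settings, and Xist or tissue scores as covariates. Leaving out tumours 3 and 25, the chromosome levels, the Cdkn2a covariate and all genes for chromosome medians were added after seeing the data.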

Additional observations from a re-analysis of the deposited data

Results flagged for a closer look

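In 5 of 116 results examined, 1 of the 7 tumours stood far from the other 6 (Dixon's ratio above 0.568), and chance gives about 1 such result in 20. Tumour 12 was highest for Tubb2a (8.62, next 7.75) and Zfp948 (8.47, next 7.01), lowest for Crmp1 (6.87, next 8.58), and lowest for the chromosome 2 level (-0.35, next -0.09). Tumour 15 was highest for Hnrnpk (13.17, next 12.81).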

How the results depend on the processing

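No paired analysis was possible because the labels put all tumours in 1 group. Leaving out 1 of the 7 tumours at a time gave 106 to 211 genes higher and 54 to 94 lower outside chromosome 13, 1 to 2 and 0 to 3 list members, a chromosome 13 median of -0.51 to -0.42, 0 to 4 other chromosomes past the threshold, and differences of 0.053 to 0.108 for chromosome 4 and 0.091 to 0.163 for X. Arrays centred off chromosome 13 gave 122 higher and 58 lower with 1 list member each, and Cdkn2a as covariate 6 and 4 with 0 and 1. List members called higher (2) became 6 with tissue scores and 1 without tumours 3 and 25, and those called lower (3) became 1 against all other tumours, 1 with Xist and 0 without 3 and 25. With all genes the chromosome 13 median was -0.21, and chromosomes 4 (0.0312) and X (0.032) left 0 past the threshold, as they did without 3 and 25 (0.0861 and 0.159). Differences that changed sign, none of them called, were Myc (-0.0192, tissue scores), Mdm2 (0.0082, mean of probe sets, and 0.019, tissue scores), Rpl22 (-0.0415, mean of probe sets, and -0.0025, relative to its chromosome) and Cdkn2b (-0.0488 to 0.1307 without 1 tumour, the lowest without tumour 12, -0.0459 relative to its chromosome, and -0.39 with Cdkn2a). The cause of these changes was not tested. No gene was called in opposite directions by any of the 18 alternatives. The other alternatives kept the counts outside chromosome 13 within 1.5 times. Of the named genes outside chromosome 13, 13 lost their call with Xist, 12 with tissue scores, 10 without tumours 3 and 25, 6 against all other tumours and 36 with Cdkn2a. The fit with Cdkn2a separates side from Cdkn2a level poorly.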
